A study of Mus musculus with 4 samples.

Results

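The genes described are 10 parts of the Notch pathway in Müller glial cells, the receptors *Notch1*, *Notch2* and *Notch3*, the ligands *Dll1* and *Jag1*, the DNA-binding factor *Rbpj* and the target genes *Hes1*, *Hes5*, *Hey1* and *Hey2*. They were chosen by name, and the 10 were found among the 24322 gene symbols measured. Retinal cells carrying the fluorescent protein mTFP were collected by FACS at P14, after tamoxifen at P4, and each RNA-seq library came from 1 mouse. All 4 mice carried *Rlbp1*-CreERT2, in which the promoter of a Müller glial gene drives a Cre that tamoxifen activates, and R26-CAG-LoxP-mTFP1, a reporter that Cre switches on. The 2 control mice, numbered 7984 and 3911, were *Rax* flox/WT, so that 1 of their *Rax* alleles was floxed, and the 2 *Rax* iCKO mice, numbered 7983 and 3914, were *Rax* flox/flox. *Rax* encodes a homeodomain transcription factor of retinal progenitor and Müller glial cells. The comparison asks which RNAs differ when Cre can delete both of its alleles rather than 1.

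Notch receptors are cut at the membrane when a ligand of the Delta or Jagged type on a neighbouring cell binds them, and the released intracellular domain joins Rbpj on DNA and switches on genes of the Hes and Hey families. The Hes and Hey proteins are basic helix-loop-helix repressors that hold back proneural genes. In the postnatal retina this pathway is known for promoting Müller glial fate, and *Hes1* and *Hes5* stay active in these cells.

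None of the Notch genes passed the test between *Rax* iCKO and control mice. The targets *Hes1* and *Hes5* were the most abundant of the 10, with mean FPKM ratios of *Rax* iCKO to control of 0.704 and 0.735. Their *Rax* iCKO values lay below both controls, as did those of 14.1% of all genes tested, and overlapped the controls with quantile normalization. *Hey2* had a ratio of 0.714 with overlapping groups, and *Hey1* was nearly equal in the 4 libraries. *Notch1* and *Notch2* differed less between the genotypes than between the runs of mouse numbers, being 3.22 and 3.27 times higher in mice 7984 and 7983 than in mice 3911 and 3914.

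For *Rax* itself, the deleted gene, the controls 7984 and 3911 gave 189 and 181 FPKM, and the *Rax* iCKO animals 7983 and 3914 gave 111 and 98.4 FPKM. FPKM is the number of reads on a gene per kilobase of its exons, scaled to the mapped reads of the library, so levels of different genes can be set side by side. The log2 difference of *Rax* was −0.82 (SE 0.21, 95% interval −1.34 to −0.30, limma unadjusted p = 0.00859, adjusted p = 0.9999), and the groups did not overlap. The deleted gene itself thus did not pass the adjusted test, so a gene that does not pass can still differ. One FPKM per gene does not show which exons the remaining reads come from. The 10 Müller glial markers examined were at 33 FPKM or more in every library, with *Rlbp1* at 1292 to 2616 FPKM. RNA of bipolar cells and rods was also present, with the bipolar gene *Pcp2* at 2071 to 6515 FPKM and the rod gene *Gnat1* at 143 to 386 FPKM. The files hold no counts, and the mapped reads estimated from whole-read steps in the low values numbered 9180000 to 12580000 a library.

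The 250 bases upstream of the annotated start are shown for *Hes5* and *Hey2*, because Rbpj acts on its targets through a short DNA sequence, and for *Nrarp*, a feedback gene of the pathway described with the targets. The sequences are those of RefSeq on GRCm38.p6, written 5′ to 3′ on the strand of the gene. Capitals in *Hes5* and *Hey2* mark TGGGAA or its reverse complement TTCCCA, the core bound by Rbpj. Capitals in *Nrarp* mark AATTA, the reverse complement of TAATT, the core bound by many homeodomain proteins.
*Hes5*, chr4:154960673-154960922, plus strand: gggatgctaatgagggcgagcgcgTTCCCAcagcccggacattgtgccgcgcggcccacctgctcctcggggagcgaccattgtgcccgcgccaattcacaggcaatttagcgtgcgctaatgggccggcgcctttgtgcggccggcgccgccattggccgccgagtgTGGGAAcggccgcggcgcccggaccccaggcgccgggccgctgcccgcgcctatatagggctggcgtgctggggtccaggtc
*Hey2*, chr10:30842784-30843033, minus strand: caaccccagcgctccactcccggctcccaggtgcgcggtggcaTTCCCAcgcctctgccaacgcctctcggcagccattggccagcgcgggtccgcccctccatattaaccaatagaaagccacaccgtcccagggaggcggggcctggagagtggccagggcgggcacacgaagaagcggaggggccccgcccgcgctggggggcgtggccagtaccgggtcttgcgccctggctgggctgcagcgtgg
*Nrarp*, chr2:25180508-25180757, plus strand: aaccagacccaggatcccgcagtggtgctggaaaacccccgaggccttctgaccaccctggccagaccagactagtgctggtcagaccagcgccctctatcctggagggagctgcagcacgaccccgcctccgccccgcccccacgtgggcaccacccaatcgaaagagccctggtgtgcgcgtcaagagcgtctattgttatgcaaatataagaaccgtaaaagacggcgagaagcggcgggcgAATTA

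The *Hes5* window held the Rbpj core at 226 to 221 and at 82 to 77 bases before the start, and both matches extended to GTGGGAA, which contains the core. *Hey2* held 1 match, at 207 to 202 bases before the start, which extended to GTGGGAA as well. One of the windows of *Rbpj* itself, chr5:53590096-53590345 on the plus strand, held the core at 149 to 144 and at 65 to 60 bases before the start. The windows of *Notch1*, *Notch2*, *Notch3*, *Dll1*, *Jag1* and *Nrarp* held no TGGGAA on either strand. A window was found for 8 of the 10 genes, those without one being *Hes1* and *Hey1*. Searched on both strands, TGGGAA stood in 21.6% of 32851 promoter windows and in 21.2% of 80 windows of Notch pathway genes, and GTGGGAA in 5.42% and 8.75%. TAATT stood in 25% of all windows, in 21.2% of the pathway windows and in none of the windows of the 8 genes. Of the pathway genes described below with an unadjusted limma p under 0.05, *Nrarp* held it at the last 5 bases before the start. *Tle2* held it at 202 to 198 bases before its start, and *Dlk2* held none. *Fbxw7* and *Ctbp2*, without such a p, held it as well. These matches are letters in a window and not measured binding sites.

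The Notch genes spanned more than 2 orders of magnitude in level. The mean over the 4 libraries was 146 FPKM for *Hes5*, 114 for *Hes1*, 17.4 for *Hey1*, 12 for *Notch1*, 11.9 for *Hey2*, 10.7 for *Rbpj*, 7.54 for *Notch2*, 3.54 for *Dll1*, 1.25 for *Notch3* and 0.772 for *Jag1*. Of the neighbours in this order, *Hes1* and *Hey1* had ranges over the libraries that did not overlap. *Hes5* was above *Hes1*, and *Dll1* above *Notch3*, in 4 of 4 libraries although their ranges overlapped. *Notch1* and *Hey2* stood in the given order in 2 of 4 libraries, as did *Hey2* and *Rbpj*, so these were not separated.

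**Figure D1:**
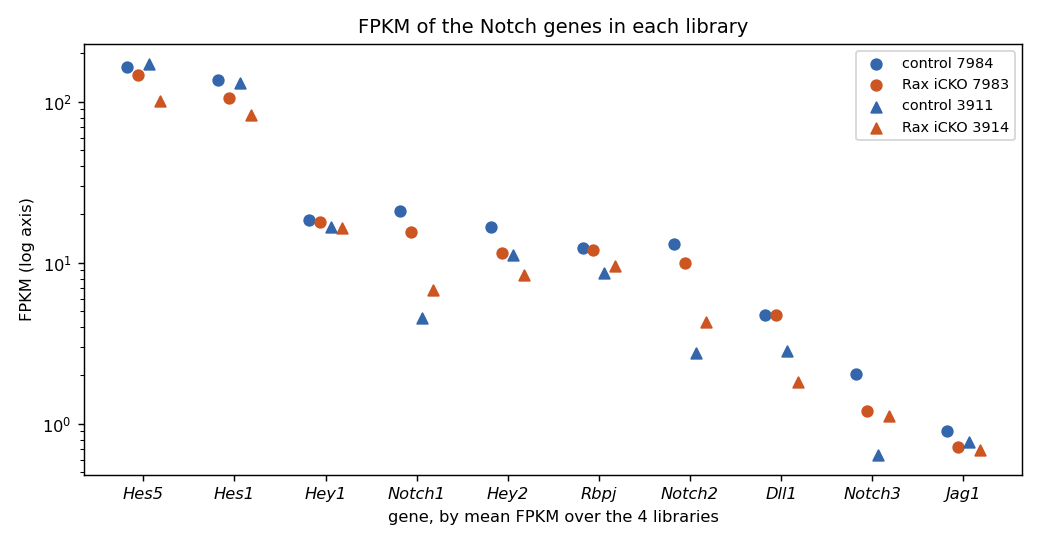
FPKM on a log axis for each of the 10 Notch genes, ordered by mean, with blue points for the 2 control libraries, orange points for the 2 Rax iCKO libraries, circles for mice 7984 and 7983 and triangles for mice 3911 and 3914. Hes5 and Hes1 stand at 82.4 FPKM or more in every library, and Notch1 and Notch2 separate by symbol shape rather than by color.

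Genotypes were compared with limma on log2(FPKM + 1) over the 12363 genes that averaged 1 FPKM or more, and a log2 difference is *Rax* iCKO minus control on that scale throughout. Because 1 is added, differences of low genes are understated. An adjusted p (Benjamini-Hochberg over all genes tested) under 0.05 counted as a call. Over all genes 3 were called, which is 0.0243%, and of the 9 Notch genes tested 0 were called, each with an adjusted p of 0.9999, which was also the value for every other gene named from this fit. At an unadjusted p under 0.05, 354 of all genes passed (2.86%, with 1.26% higher and 1.6% lower) and again 0 of the 9. A mean ratio over 2 or under 0.5 was met by 1.86% of all genes and by 0 of the 9. The groups did not overlap in 2 of the 9, against 29.5% of all genes. In these 2 the *Rax* iCKO libraries were the lower, as in 14.1% of all genes, and they were the higher in 0 of the 9, against 15.4%. The median log2 difference was −0.05 over the 9 and −0.0044 over all genes. With 2 mice against 2, the exact permutation test of a single gene cannot go below p = 0.333.

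**Figure D2:**
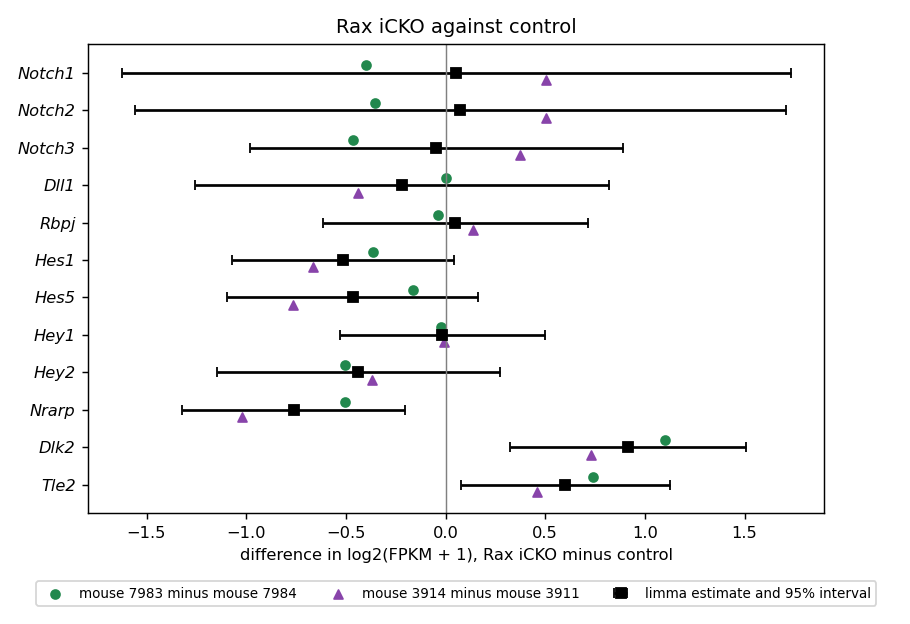
Rax iCKO minus control in log2(FPKM + 1) for the 9 Notch genes tested and for Nrarp, Dlk2 and Tle2, with the limma estimate and its 95% interval in black, the difference of mice 7983 and 7984 as green circles and that of mice 3914 and 3911 as purple triangles. The intervals of the 9 Notch genes include 0, and those of Notch1 and Notch2 are the widest, reaching from −1.62 to 1.73 and from −1.56 to 1.71.

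Of the receptors, *Notch1* lies on chromosome 2 (GRCm38, 26457903 to 26516663, minus strand) and gave 20.9 and 4.52 FPKM in the controls 7984 and 3911, and 15.6 and 6.84 FPKM in the *Rax* iCKO animals 7983 and 3914. The groups overlapped, with 12.7 ± 11.6 FPKM (SD, n = 2) in control and 11.2 ± 6.22 FPKM (SD, n = 2) in *Rax* iCKO mice. The log2 difference was 0.05 (SE 0.69, 95% interval −1.62 to 1.73). *Notch2*, on chromosome 3 (98013527 to 98150361, plus strand), was at 13.1 and 2.75 FPKM in controls and at 10.01 and 4.32 FPKM in *Rax* iCKO mice. The same libraries were high and low as for *Notch1*, and the log2 difference was 0.08 (SE 0.67, 95% interval −1.56 to 1.71). *Notch3*, which in many tissues is a receptor of vascular mural cells, lies on chromosome 17 (32120820 to 32166852, minus strand) and was low, at 2.04 and 0.639 FPKM in controls and 1.20 and 1.12 FPKM in *Rax* iCKO mice. Its log2 difference was −0.05 (SE 0.38, 95% interval −0.98 to 0.89), and the lowest value rested on about 46 reads. Of the 6 mural cell markers *Acta2*, *Cspg4* and *Abcc9* stayed at or below 0.260 FPKM in every library, *Rgs5* was at 0.534 to 1.65 FPKM, *Kcnj8* reached 1.12 FPKM and *Pdgfrb* was at 10.3 to 24.7 FPKM. Their part in the *Notch3* values was not tested.

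Within the pair of mice 7983 and 7984 the log2 difference between genotypes was −0.40 for *Notch1*, −0.36 for *Notch2* and −0.46 for *Notch3*, and within the pair 3914 and 3911 it was 0.51, 0.51 and 0.37. The receptors were thus lower in the *Rax* iCKO mouse of one pair and higher in that of the other, and with 1 mouse of each genotype per pair the difference between pairs could not be tested. The ratio of *Notch1* to *Notch2* within a library was steady, at 1.60 and 1.65 in controls and 1.56 and 1.58 in *Rax* iCKO mice. Both *Rax* iCKO ratios were below both control ratios, with an exact permutation p of 0.333, the smallest possible here.

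**Figure D3:**
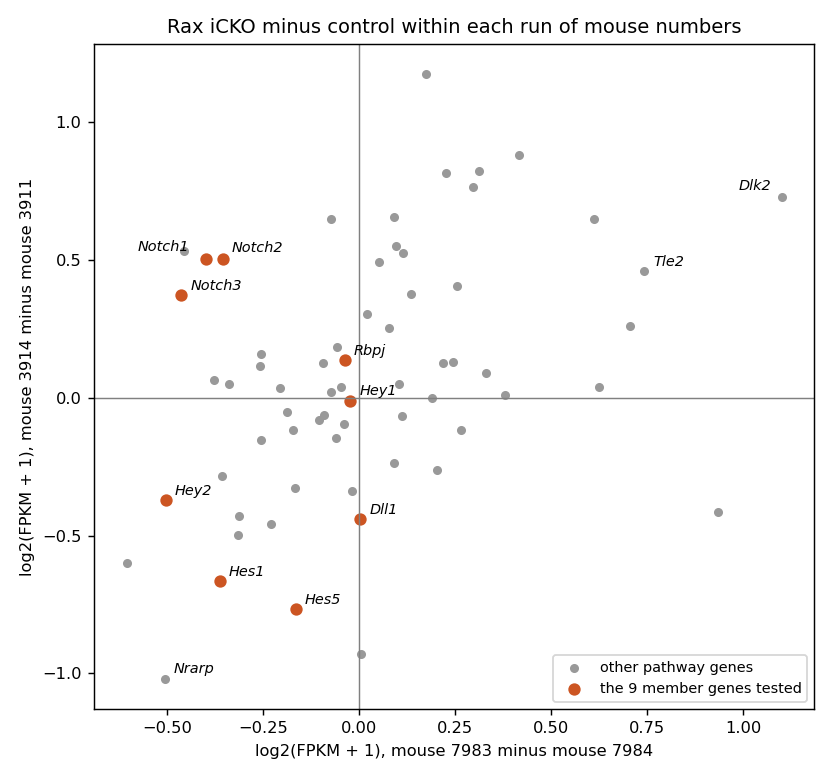
Rax iCKO minus control in log2(FPKM + 1) within mice 7983 and 7984 (horizontal) and within mice 3914 and 3911 (vertical), with each of the 65 Notch pathway genes tested as a point and the 9 Notch genes in orange. The receptors lie at upper left, with differences of opposite sign in the pairs, and Hes1, Hes5, Hey2 and Nrarp lie at lower left, below 0 in both.

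The ligand *Dll1*, on chromosome 17 (15367354 to 15376872, minus strand), was at 4.74 and 2.84 FPKM in controls and at 4.76 and 1.83 FPKM in *Rax* iCKO mice. The groups overlapped, and the log2 difference was −0.22 (SE 0.43, 95% interval −1.26 to 0.82). *Jag1*, on chromosome 2 (137081456 to 137116644, minus strand), had a mean FPKM below 1 and was outside the genes tested. It was at 0.904 and 0.773 FPKM in controls and 0.720 and 0.689 FPKM in *Rax* iCKO mice, or about 62, 38, 36 and 34 reads. In a fit without the filter its log2 difference was −0.11 (SE 0.16, 95% interval −0.52 to 0.31, limma adjusted p = 0.995), with both *Rax* iCKO libraries below both controls.

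*Rbpj*, the factor through which all Notch receptors act on DNA, lies on chromosome 5 (53466152 to 53657362, plus strand). It was at 12.5 and 8.67 FPKM in controls and at 12.1 and 9.63 FPKM in *Rax* iCKO mice. The *Rax* iCKO values lay between the control values, and the log2 difference was 0.05 (SE 0.27, 95% interval −0.61 to 0.71).

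Among the targets, *Hes1*, on chromosome 16 (30064384 to 30067796, plus strand), gave 137 and 131 FPKM in the controls 7984 and 3911, and 106 and 82.4 FPKM in the *Rax* iCKO animals 7983 and 3914. The groups did not overlap, with 134 ± 4.16 FPKM (SD, n = 2) in control and 94.4 ± 17.0 FPKM (SD, n = 2) in *Rax* iCKO mice, and each value rested on an estimated 965 to 2187 reads. The log2 difference was −0.51 (SE 0.23, 95% interval −1.07 to 0.04, limma unadjusted p = 0.0650), and the exact permutation p was 0.333. In this fit *Hes1* thus missed the threshold before and after adjustment. In a limma fit blocked by mouse-number run its SE was 0.14 and its adjusted p was 0.113. Within the pairs of mice its difference was −0.36 (7983 minus 7984) and −0.66 (3914 minus 3911).

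*Hes5*, on chromosome 4 (154960923 to 154962371, plus strand), was at 165 and 173 FPKM in controls and at 147 and 101.3 FPKM in *Rax* iCKO mice. The groups did not overlap, with 169 ± 5.92 FPKM (SD, n = 2) in control and 124 ± 32.1 FPKM (SD, n = 2) in *Rax* iCKO mice. Mouse 3914 was the lowest and lay further from mouse 7983 than that mouse lay from the nearer control. The log2 difference was −0.47 (SE 0.26, 95% interval −1.10 to 0.17, limma unadjusted p = 0.121), with −0.17 and −0.77 within the pairs and an exact permutation p of 0.333. The ratio of *Hes5* to *Hes1* within a library was 1.20 and 1.32 in controls and 1.38 and 1.23 in *Rax* iCKO mice, so the groups overlapped and the 2 genes kept a similar proportion. The ratio of *Hes1* to *Rbpj* was 11.01 and 15.1 in controls and 8.79 and 8.55 in *Rax* iCKO mice, with an exact permutation p of 0.333. The ratio of *Hes1* to the Müller glial gene *Rlbp1* overlapped, at 0.0524 and 0.0608 in controls and 0.0824 and 0.0528 in *Rax* iCKO mice (exact permutation p = 0.667), and so did that of *Hes1* to *Notch1*. *Rlbp1* itself lay below both controls, with a log2 difference of −0.74, the lowest of the 10 Müller glial markers. The others ranged from −0.50 (*Vim*) to 0.09 (*Kcnj10*), so this ratio depends on the marker chosen.

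*Hey1*, on chromosome 3 (8663359 to 8667256, minus strand), was at 18.4 and 16.7 FPKM in controls and 18.1 and 16.5 FPKM in *Rax* iCKO mice. Its log2 difference of −0.02 (SE 0.21, 95% interval −0.53 to 0.50) leaves room for a difference of the size seen in *Hes1*. *Hey2*, on chromosome 10 (30832359 to 30842801, minus strand), was at 16.7 and 11.2 FPKM in controls and at 11.5 and 8.42 FPKM in *Rax* iCKO mice. Mouse 7983 lay just above control mouse 3911, so the groups overlapped, although the *Rax* iCKO mouse was the lower of each pair, with differences of −0.50 and −0.37. The log2 difference was −0.44 (SE 0.29, 95% interval −1.14 to 0.27, limma unadjusted p = 0.183), and the exact permutation p was 0.667.

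With quantile normalization the groups overlapped for *Hes1* (log2 difference −0.40) and *Hes5* (−0.34), and *Hey2* was then the gene without overlap. Of the 10 Müller glial markers 0 were called and 7 had overlapping groups. The summed FPKM of these markers was 14800 and 11167 in controls and 10085 and 10157 in *Rax* iCKO mice, 9 had a log2 difference below 0, 3 lay below both controls, and the median log2 difference was −0.31. When each library was centred on these markers, an alternative chosen after the data were seen, the log2 difference was −0.19 for *Hes1*, −0.14 for *Hes5* and −0.12 for *Hey2*, and their groups overlapped for *Hes1* and *Hes5*. This scaling moved the median of all genes to 0.32, so that relative to other genes the targets stood where they did before. None of the rod markers was called either. Of 7, 6 lay below both controls, beside 14.1% of all genes, with a median log2 difference of −0.57 and a summed FPKM of 1072 and 1124 in controls against 731 and 674 in *Rax* iCKO mice. Of 6 bipolar cell markers 3 lay above both controls, 0 were called, and their median was 0.34. Of 6 endothelial markers *Cdh5* and *Tek* were at or below 0.149 FPKM in every library, *Pecam1* and *Cldn5* at or below 1.77 FPKM, *Flt1* at 13.2 to 25.1 FPKM and *Kdr* at 228 to 464 FPKM. The 6 endothelial markers summed to 490 and 244 FPKM in controls and 406 and 257 FPKM in *Rax* iCKO mice, and the 6 microglial markers summed to 15.5 and 17.6 FPKM in controls and 30.3 and 3.31 FPKM in *Rax* iCKO mice. The part of these cell types in the values of *Hes1* and *Hes5* was not tested, and in sorted bulk RNA fewer cells of a type and less RNA per cell cannot be told apart.

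**Figure D4:**
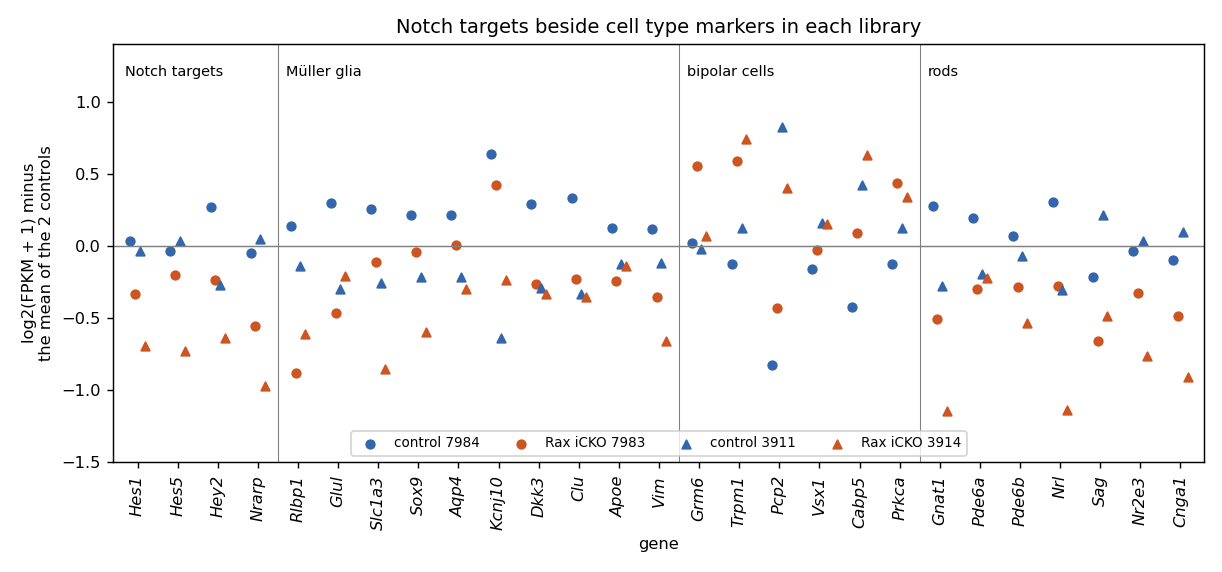
log2(FPKM + 1) of each library minus the mean of the 2 controls, for Hes1, Hes5, Hey2 and Nrarp and for markers of Müller glia, bipolar cells and rods, with control libraries in blue, Rax iCKO libraries in orange, circles for mice 7984 and 7983 and triangles for mice 3911 and 3914. Both Rax iCKO libraries lie below both controls for Hes1, Hes5 and Nrarp, for 3 of 10 Müller glial markers and for 6 of 7 rod markers, and above both for 3 of 6 bipolar markers.

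The genes whose pattern over the 4 libraries was most like that of *Hes1*, by the Euclidean distance of centred log2(FPKM + 1), were *Mxd3* (0.0319), *Ttc39c* (0.0482) and *Fam151b* (0.0537). *Hes5* ranked at position 53 in that order and *Nrarp* at 324. For *Hes5* the nearest were *Upk3bl* (0.0677), *Pcdha10* (0.0742) and *Pgbd1* (0.0776), with *Hes1* at position 40. These positions are among the 12363 genes tested, less the gene itself, so each target stood near the front of the other's order. Some other genes still followed either target more closely.

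A wider list of 78 Notch pathway genes, in 10 groups by role, put these values beside the rest of the pathway. Of the 65 tested, 0 were called, while 2 were higher and 1 lower at an unadjusted limma p under 0.05, beside 2.86% of all genes in either direction. In 11 the *Rax* iCKO libraries lay above both controls and in 6 below both, beside 15.4% and 14.1% of all genes. The median log2 difference was 0.02, against −0.0044 over all genes. In the Hes and Hey group all 5 genes tested had a difference below 0, beside 6275 of the 12363 genes tested, with a median of −0.44. *Hey1* (−0.02) and *Hes6* (−0.07) were close to 0 and changed sign with a mouse left out, reaching 0.051 and 0.35. *Hes6* was at 0.035 with quantile normalization, and *Hey1* and *Hes6* stood at 0.31 and 0.25 under the Müller marker scaling, which shifts all genes alike to a median of 0.32. *Hes2*, *Hes7* and the proneural *Neurog1* were listed at 0 in all 4 libraries.

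The lower gene was *Nrarp*, a Notch target whose small ankyrin repeat protein binds the receptor's intracellular domain on Rbpj and limits the signal. It was at 44.4 and 47.5 FPKM in controls and at 30.9 and 23.0 FPKM in *Rax* iCKO mice, with a log2 difference of −0.76 (SE 0.23, 95% interval −1.32 to −0.20, limma unadjusted p = 0.0156). The groups did not overlap, and both pairs of mice showed the same direction. Under the Müller marker scaling, which shifts all genes alike, its log2 difference was −0.44 (SE 0.40). The ratio of *Nrarp* to *Hes1* within a library was 0.324 and 0.362 in controls and 0.291 and 0.279 in *Rax* iCKO mice.

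The higher genes were *Dlk2*, which encodes a Delta-like protein without the domain that activates Notch, and *Tle2*, which encodes a Groucho corepressor that Hes proteins recruit. *Dlk2* was at 7.44 and 10.1 FPKM in controls and at 17.1 and 17.4 FPKM in *Rax* iCKO mice, with a log2 difference of 0.91 (SE 0.24, 95% interval 0.32 to 1.51, limma unadjusted p = 0.00913). Its adjusted p was 0.0492 in a limma fit blocked by mouse-number run, in which 71 of all 12363 genes and 1 of the 65 pathway genes were called. *Tle2* was at 17.7 and 21.9 FPKM in controls and at 30.3 and 30.6 FPKM in *Rax* iCKO mice, with a log2 difference of 0.60 (SE 0.21, 95% interval 0.08 to 1.12, limma unadjusted p = 0.0309). In both genes the *Rax* iCKO libraries were close together and above both controls.

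The most abundant genes of the other roles had an unadjusted p above 0.05. *Dner*, an EGF repeat protein described as a Notch ligand, was at 44.7 and 45.9 FPKM in controls and 38.6 and 47.1 FPKM in *Rax* iCKO mice. *Psenen*, a subunit of the γ-secretase that releases the intracellular domain, was at 169 and 235 FPKM in controls and 144 and 171 FPKM in *Rax* iCKO mice. Both genes had overlapping groups, with log2 differences of −0.08 and −0.34. *Rfng*, a glycosyltransferase that modifies the receptors, had a difference of 0.32, and *Neurl1a*, a ubiquitin ligase for ligands, one of 0.65 (limma unadjusted p = 0.0765). In both the *Rax* iCKO libraries lay above both controls. *Snw1*, a coactivator in the nuclear complex, *Aes*, a short Groucho relative, *Dtx3*, a Deltex ubiquitin ligase, and *Hes6*, a family member that opposes Hes1, had differences of −0.10, −0.03, 0.17 and −0.07 with overlapping groups. The fourth receptor, *Notch4*, stayed at or below 0.711 FPKM in every library. Of the proneural genes that Hes proteins repress, the most abundant was *Neurod4*, at 335 and 621 FPKM in controls and 517 and 638 FPKM in *Rax* iCKO mice, with a log2 difference of 0.33 (SE 0.38). Which of the sorted cell types its RNA came from was not tested. Of the 5 proneural genes tested 1 lay above both controls and 1 below both.

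The separation of *Notch1* and *Notch2* by mouse number was followed in a comparison chosen after the values were seen, mice 3911 and 3914 against mice 7984 and 7983 with genotype as a block. The labels do not say what the runs of numbers stand for. Mice of one run resembled each other more than mice of one genotype did, with correlations of log2(FPKM + 1) across genes, which are not independent replicates, of 0.970 and 0.970 against 0.952 and 0.955. In limma 1098 of all genes tested (8.88%) were lower in mice 3911 and 3914 at an adjusted p under 0.05, and 2322 (18.8%) differed in either direction. Of the 9 Notch genes 3 were lower, namely *Notch1* (log2 difference −1.54, SE 0.22), *Notch2* (−1.48, SE 0.24) and *Dll1* (−0.80, SE 0.24, adjusted p = 0.0365), and 0 were higher. The split was taken from the values of *Notch1* and *Notch2*, so their p-values here are no test and are not given. *Notch3* (−0.47, adjusted p = 0.294) and *Rbpj* (−0.39, adjusted p = 0.151) did not pass. The mean FPKM of *Notch1* was 18.3 in mice 7984 and 7983 and 5.68 in mice 3911 and 3914, a ratio of 3.22.

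In the wider list 16 genes were lower in mice 3911 and 3914 and 3 were higher, *Cir1*, *Hes6* and *Neurod4*. The lower genes included *Furin*, which encodes a protease that cuts the receptor precursor, at 12.7 against 2.04 FPKM (log2 difference −2.17, adjusted p = 5.3e-05). *Lfng*, *Jag2*, *Crebbp* and *Tle4*, also named after their values were seen, had log2 differences of −1.04, −1.11, −1.01 and −1.14. The run difference moved with transcript length over all genes. Its median was 0.26 for genes whose longest transcript was under 2000 bases, 0.04 from 2000 to under 4000, −0.14 from 4000 to under 6000, −0.25 from 6000 to under 8000 and −0.22 at 8000 or more. The receptors are among the longest, with transcripts of 9488 bases for *Notch1*, 10500 for *Notch2* and 8016 for *Notch3*, and the 12 pathway genes of 8000 bases or more had a median of −0.83. Over the 56 genes with at least 8000 bases and at least 55% GC, a class set after the values were seen, the median was −0.63. The class holds *Notch1* (57.1% GC) and *Notch3* (59.6%) but not *Notch2* (53.6%), whose run difference was close to that of *Notch1*. *Hes1* (1468 bases) and *Hes5* (1273 bases) are short, and their run differences of −0.21 and −0.23 lay below the median of their length class. The genotype difference moved with length too, with a median over all genes of −0.14 under 2000 bases, where *Hes1* and *Hes5* had −0.51 and −0.47, and of 0.19 at 8000 bases or more. Cell type markers also moved between the runs, with median differences of −0.35 for Müller glia, −0.71 for microglia and −0.75 for endothelium (2 genes tested). The medians were −0.19 for rods, −0.06 for cones and 0.23 for bipolar cells. The part of length, base composition and cell types in the difference of *Notch1* and *Notch2* was not tested.

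**Figure D5:**
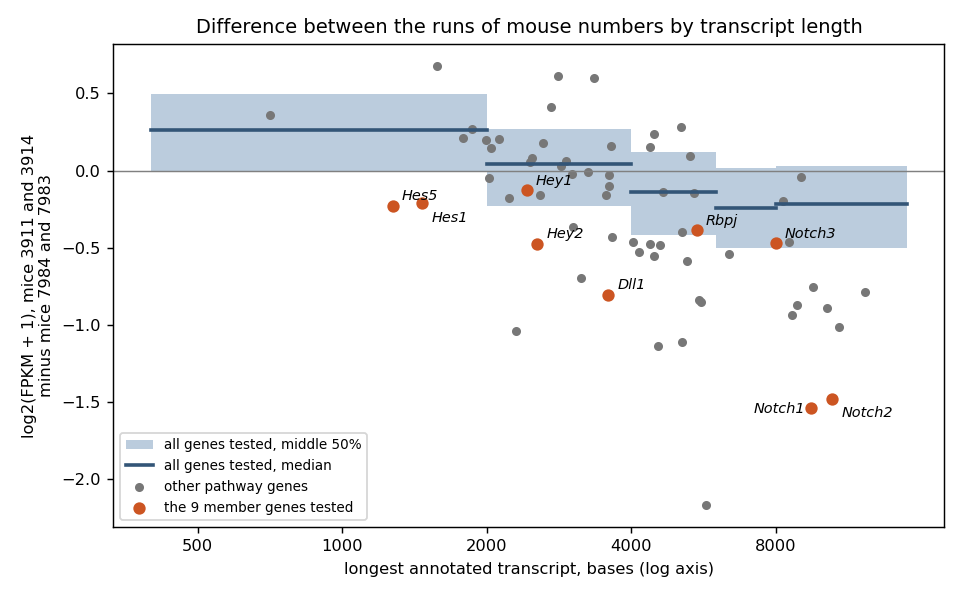
Difference in log2(FPKM + 1), mice 3911 and 3914 minus mice 7984 and 7983, against the longest annotated transcript in bases on a log axis, with the median (line) and middle 50% (band) of all genes tested per length class, the 9 Notch genes in orange and the other pathway genes in grey. Notch1 and Notch2 lie at −1.54 and −1.48, far below the band of their length class, and Hes1 and Hes5 lie at the short end.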

How the data were processed

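The data are RNA-seq libraries of sorted mTFP-positive retinal cells from 4 mice. The authors deposited 1 FPKM value per gene symbol and library, made with the Cufflinks package from reads mapped to mm10. The submitters' processing notes list TopHat2 2.1.1, Bowtie2 2.2.8, SAMtools 0.1.18 and Cuffdiff 2.2.1. The methods of the study name other versions of TopHat, Bowtie2 and SAMtools, and Cufflinks 2.2.1. The labels name a library kit with full-length cDNA amplification and tagmentation that does not mark strand, so reads of *Notch1*, *Notch3*, *Dll1*, *Rbpj* and *Hes5* cannot be told from those of annotated genes on the opposite strand. *Aph1b* and *Aph1c* are close paralogs whose split is uncertain. Whether the RNA was isolated with TRIzol LS or a spin-column kit is not settled, since the methods and the labels differ.

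Deposited FPKM were used without further scaling. They sum to between 492728 and 616277 in a library. The genotypes were set against each other by limma (version 3.58.1, R 4.3.3, two-sided, with lmFit and a trended eBayes) on log2(FPKM + 1) over genes averaging 1 FPKM or more, and single values with two-sided exact permutation tests in scipy 1.17.1 on FPKM. The limma step was tested on simulated data. Mapped reads were estimated from 282 to 386 genes with low values in whole-read steps and used only to give approximate reads behind a value. No count test was run. Mice are the replicates, and with 2 a group p-values measure only the spread between these mice. Coordinates and transcript lengths are from GENCODE vM21, with a length for 11882 of 12363 genes.

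The Notch genes, the pathway and marker lists and the tests were chosen with earlier results of these data known. Other pathway genes are named with values if they were the most abundant of their role, had an unadjusted p under 0.05, or differed over 2-fold with a mean FPKM of at least 1, and otherwise where stated. Each of these was tried as an alternative: equal medians, quantile normalization, a filter at 5 FPKM, no filter, pseudocount 0.1, eBayes without the trend, blocking by mouse-number run, and 1 mouse left out at a time. Of the 12 marker lists, the text leaves out amacrine cells (0 of 2 genes tested outside both controls), cones (0 of 5), pigment epithelium (0 of 1), ganglion cells (1 of 4, lower), astrocytes (1 of 3, lower) and cycling cells (0 genes tested), and 1 listed marker gene is not reported here.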

Additional observations from a re-analysis of the deposited data

How the results depend on the processing

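The 0 calls among the Notch genes held under every alternative run. Of 70 values for them with all 4 libraries 65 kept their direction and side of the threshold and 5 reversed, 3 of them under the Müller marker scaling, which adds about 0.32 to every gene and so fixes those reversals. Of 36 with 3 libraries 25 kept them and 11 reversed. For the 12 other pathway genes named by the rule, 88 of 96 values and 41 of 48 did so, and other genes named were not recomputed. The count of all genes called (3) was 0 without a filter and 0 with a filter at 5 FPKM (624 and 279 at an unadjusted limma p under 0.05), 6 with equal medians, 6 with Müller marker scaling, 71 with the block, and 15 to 20 with a mouse left out. The labels share no replicate numbers. With a replicate block by mouse-number run, 3 Notch genes had an unadjusted limma p under 0.05 (main 0), beside 1938 of all genes (15.7%), *Hes1*, *Hes5* and *Hey2* had adjusted p of 0.113, 0.179 and 0.259, *Nrarp* 0.0564, and 1 pathway gene, *Dlk2*, was called. Mice of a pair deviated together (correlation 0.503 across genes), but 2 pairs are too few to show pairing. Notch genes whose groups do not overlap (2) numbered 1 with quantile normalization, 3 with equal medians and 4 with Müller marker scaling.

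Reversals with 4 libraries were *Notch1* (−0.0050), *Snw1* (0.0025), *Aes* (0.13) and *Hes6* (0.035) with quantile normalization, *Notch3* with pseudocount 0.1 (0.0054), and *Notch3* (0.28), *Dll1* (0.10), *Hey1* (0.31), *Dner* (0.24), *Snw1* (0.22), *Aes* (0.29) and *Hes6* (0.25) with Müller marker scaling, which also moved the median of the pathway list to 0.34. With each mouse left out in turn, the log2 difference ranged from −0.94 to 1.05 for *Notch1*, −0.88 to 1.03 for *Notch2*, −0.49 to 0.40 for *Notch3*, −0.73 to 0.29 for *Dll1*, −0.19 to 0.29 for *Rbpj*, −0.083 to 0.051 for *Hey1*, −0.22 to 0.06 for *Dner*, −0.27 to 0.060 for *Snw1*, −0.25 to 0.19 for *Aes*, −0.49 to 0.35 for *Hes6* and −0.11 to 0.78 for *Neurod4*. It stayed below 0 for *Hes1* (−0.70 to −0.33), *Hes5* (−0.73 to −0.20), *Hey2* (−0.71 to −0.17) and *Nrarp* (−0.97 to −0.55). The median of the Notch genes ranged from −0.51 to 0.073 and that of the pathway list from −0.11 to 0.13. A lone mouse is there assumed to vary like the other group. Except where the setting leaves out genes or libraries, the cause was not tested. Over all gene symbols 3300 had a mean ratio past 2-fold, against 230 of those averaging 1 FPKM or more. Depth limits *Jag1* and *Notch3*, which rest on as few as 34 and 46 reads in a library.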
